A study of Homo sapiens with 6 samples.

Results

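The clustered protocadherins are 53 of the 38606 human genes counted in single nuclei from 6 teratoma libraries. They were taken by symbol alone: 13 alternate and 2 C-type members of the alpha cluster (PCDHA and PCDHAC), 16 members of the beta cluster (PCDHB), and 12 A-type, 7 B-type and 3 C-type members of the gamma cluster (PCDHGA, PCDHGB and PCDHGC). The teratomas, tumours in which pluripotent cells form tissues of many kinds, grew from H1, an established line of human embryonic stem cells. Cells were placed in matrigel, a basement membrane gel, in the flank of NSG mice, which lack most immune cells, and the tumours were flash frozen before nuclei were made. The groups were lncPRESS1 WT, lncPRESS1 KO and lncPRESS1 ΔATG (DATG), with 2 libraries each. The labels do not describe the ΔATG change, how the KO was made, or whether the replicates were separate clones or tumours, so p-values measure only the spread between these libraries, which may be technical.

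Clustered protocadherins are cadherin-type adhesion proteins at the surface of neurons. Each variable exon has its own promoter, and a neuron is known to use only some of them, so that different neurons carry different sets; proteins of the same kind bind each other across membranes, which lets branches of a neuron recognise and avoid each other. Promoter use is known to depend on DNA methylation, on the insulator protein CTCF and on cohesin, while the C-type members are chosen in a less variable way. Alpha and gamma messages join a variable exon to constant exons shared by the whole cluster, and beta genes have no such constant exons.

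CTCF is known to bind a short conserved element with the core CGCT before most of these starts, and the promoters are shown because they set the 3 clusters apart by sequence. RefSeq promoters (GRCh38.p14, chromosome 5, plus strand) were at hand for 47 of the 53 members, and the 250 bases before each start were searched on both strands. Capitals mark TGTCGCT in alpha windows, TGGCGCT in beta windows and GCCGCTGT in gamma windows. The words were chosen after the members' promoters had been read, so the counts are a description. The alpha windows belong to the alternate members with the most UMIs (unique molecular identifiers, which count RNA molecules). The beta windows belong to PCDHB2, to 3 further members described below, and to PCDHB15, and the gamma windows to the A-type and B-type members with the most UMIs and to PCDHGA9.
PCDHA4 (chr5:140806983-140807012): gccacatgaTGTCGCTctttaccacaaaat
PCDHA10 (chr5:140855845-140855874): gccaccggaTGTCGCTgtcgtccacaaaat
PCDHA12 (chr5:140875248-140875277): gtcacatgaTGTCGCTctacactcagaagg
PCDHB2 (chr5:141094548-141094577): gacgcggggTGGCGCTgcagccttagaagt
PCDHB9 (chr5:141187078-141187107): gccacaaggTGGCGCTgcagactgaagaga
PCDHB12 (chr5:141208647-141208676): gacgcgtggTGGCGCTgcaggataatatca
PCDHB14 (chr5:141223267-141223296): gacacatggTGGCGCTacaggataagacga
PCDHB15 (chr5:141245318-141245347): aacgcatggTGGCGCTgcaggctaaggctt
PCDHGA9 (chr5:141402718-141402747): gactctgagcGCCGCTGTtgatcaactcta
PCDHGB6 (chr5:141407928-141407957): gcctctgggcGCCGCTGTcggccagtgcag
PCDHGA10 (chr5:141412935-141412964): gactctgagcGCCGCTGTtcacctactagg

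TGTCGCT stood in 10 of 13 alpha, 1 of 14 beta and 3 of 20 gamma promoters, and in 1.31% of all 27305 RefSeq promoters. TGGCGCT stood in 0 alpha, 12 beta and 3 gamma promoters, against 3.14% of all. GCCGCTGT was found in 11 gamma promoters and in no alpha or beta promoter, against 1.19% of all. The 3 words overlap in the core CGCT. It alone stood in 12 of 13 alpha, 13 of 14 beta and 20 of 20 gamma promoters, and in 64.3% of all. The core by itself thus does not set the 3 clusters apart from each other. Of the 47 promoters, 36 held at least 1 of the 3 words. Those without were PCDHA9, PCDHAC1, PCDHAC2, PCDHB1, PCDHB8, PCDHGA2, PCDHGB2, PCDHGB3, PCDHGA6, PCDHGB7 and PCDHGA11; a missing word says only that these letters are not in this window.

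The libraries held 35785812 to 47574535 UMIs in all. From these, 5254 to 10932 human nuclei were kept per library, with medians of 2429 to 3838 UMIs. LNCPRESS1, the targeted gene, had 6 and 2 UMIs in WT, 3 and 0 in KO, and in DATG 0 and 3, too few to check the labels. The DATG libraries stood apart from each other (r = 0.930 over genes, of log2 CPM, a gene's UMIs scaled to the library's total of human UMIs) more than the WT pair (0.982) and the KO pair (0.986), and DATG replicate 2 held 3649 mixed-species barcodes of 10286. At most 51 barcodes were shared by any pair of libraries. Mitochondrially encoded RNA made up 0.173% and 0.0814% of UMIs in WT, 0.181% and 0.116% in KO, and in DATG 0.506% and 0.498%.

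Over the 6 libraries the alpha genes gave 7745 UMIs, the beta genes 6090 and the gamma genes 5688. On GRCh38 (GENCODE 29) the alpha genes lie at chr5:140786136-141012347, the beta genes at chr5:141051135-141249365 and the gamma genes at chr5:141330571-141512981. All 15 alpha genes share their last exon with each other, as do all 22 gamma genes, and the reads here start near the 3′ end of a message. UMIs in a shared exon cannot be assigned to a member, and the alpha and gamma gene bodies overlap. Whether introns were counted, and on which strand, was not stated, so a UMI given to an alpha or gamma member may lie in its own exon or elsewhere in its gene body, and its value per kb of own exonic sequence is to be read with that limit. The beta genes, of which none shares its end, are read first.

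The 5 beta genes with the most UMIs were PCDHB2 (ENSG00000112852, 1267 UMIs), PCDHB14 (872), PCDHB9 (725), PCDHB4 (508) and PCDHB16 (486). All code for adhesion proteins with a short tail inside the cell. Per kb of own exonic sequence they gave 307, 181, 164, 133 and 97.2 UMIs, against a median of 68.1 over the 16 beta genes, so that PCDHB2 led on both scales. The 3 with the fewest were PCDHB8 (4 UMIs), PCDHB1 (40) and PCDHB7 (69); PCDHB8 resembles its neighbours closely, and UMIs lost to or gained from them would not be seen. PCDHB2 and PCDHB14 together held 35.1% of beta UMIs.

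Among alpha alternate members PCDHA10 had 2409 UMIs, PCDHA4 1161, PCDHA12 1143 and PCDHA9 942. Their order changed per own kb: PCDHA12 gave 442, PCDHA10 196, PCDHA9 131 and PCDHA4 110, since the annotated own sequence runs from 2488 to 12300 bases in this cluster. The gamma cluster was the least even, with 65.6% of its UMIs on PCDHGA10 (2558 UMIs, 573 per own kb) and PCDHGB6 (1173, 255). Of the C-type members, PCDHAC1 gave 538 UMIs (132 per own kb) and PCDHGC3 314 (96.6), while PCDHAC2, PCDHGC4 and PCDHGC5 gave 40, 50 and 28.

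**Figure D1:**
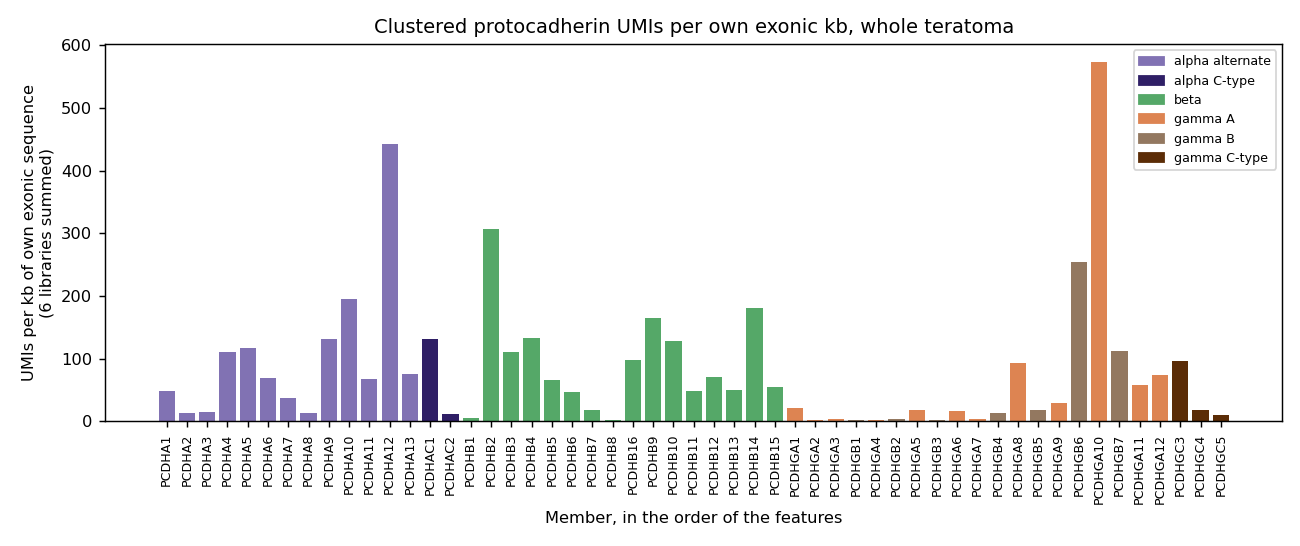
UMIs per kb of a member's own exonic sequence, summed over the 6 libraries (bars, linear axis from 0), with members in the order of the features and coloured by subfamily. PCDHGA10 (573), PCDHA12 (442) and PCDHB2 (307) stand highest.

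Nuclei were clustered without any member among the variable genes, and clusters were named from marker lists; the classes come from the same nuclei, so levels between classes are given without a test. In neuron-like nuclei all 14 neuron markers reached 20 CPM, as did 8 of 14 neural progenitor, 9 of 14 mesenchyme and 0 of 13 gut epithelium markers. Summed alpha levels there were 84.9 and 88.7 CPM in WT, 93.7 and 108.1 in KO, and in DATG 84.1 and 87.8. Neural progenitor-like nuclei had 38.6 to 51.8 CPM and mesenchyme-like nuclei 21.8 to 39.4 over the same libraries. Every library had more alpha in neuron-like than in progenitor-like nuclei (1.88 to 2.30 times) and than in mesenchyme-like nuclei (2.38 to 4.06 times).

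Summed beta levels in neuron-like nuclei were 63.2 and 59.6 CPM in WT, 71.6 and 59.4 in KO, and in DATG 63.3 and 150.5. The value of 150.5 in DATG replicate 2 rests on 96 UMIs. Progenitor-like nuclei had 30.2 to 43.3 CPM, mesenchyme-like nuclei 18.1 to 35.7, and gut epithelium-like nuclei, in the 5 libraries with enough of them, 4.99 to 19.7. Neuron-like nuclei stood above progenitor-like nuclei in all 6 libraries (1.58 to 3.48 times) and above mesenchyme-like nuclei in all 6 (1.77 to 6.23 times).

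The gamma cluster had another order. Neuron-like nuclei had 36.1 and 43.9 CPM in WT, 34.3 and 37.8 in KO, and in DATG 25.5 and 43.9, and mesenchyme-like nuclei had 25.9 to 49.9. In all 6 libraries the neuron-like value lay below the mesenchyme-like one, at 0.854 to 0.987 times it. Gut epithelium-like nuclei were low here too, with 4.99 to 16.9 CPM.

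**Figure D2:**
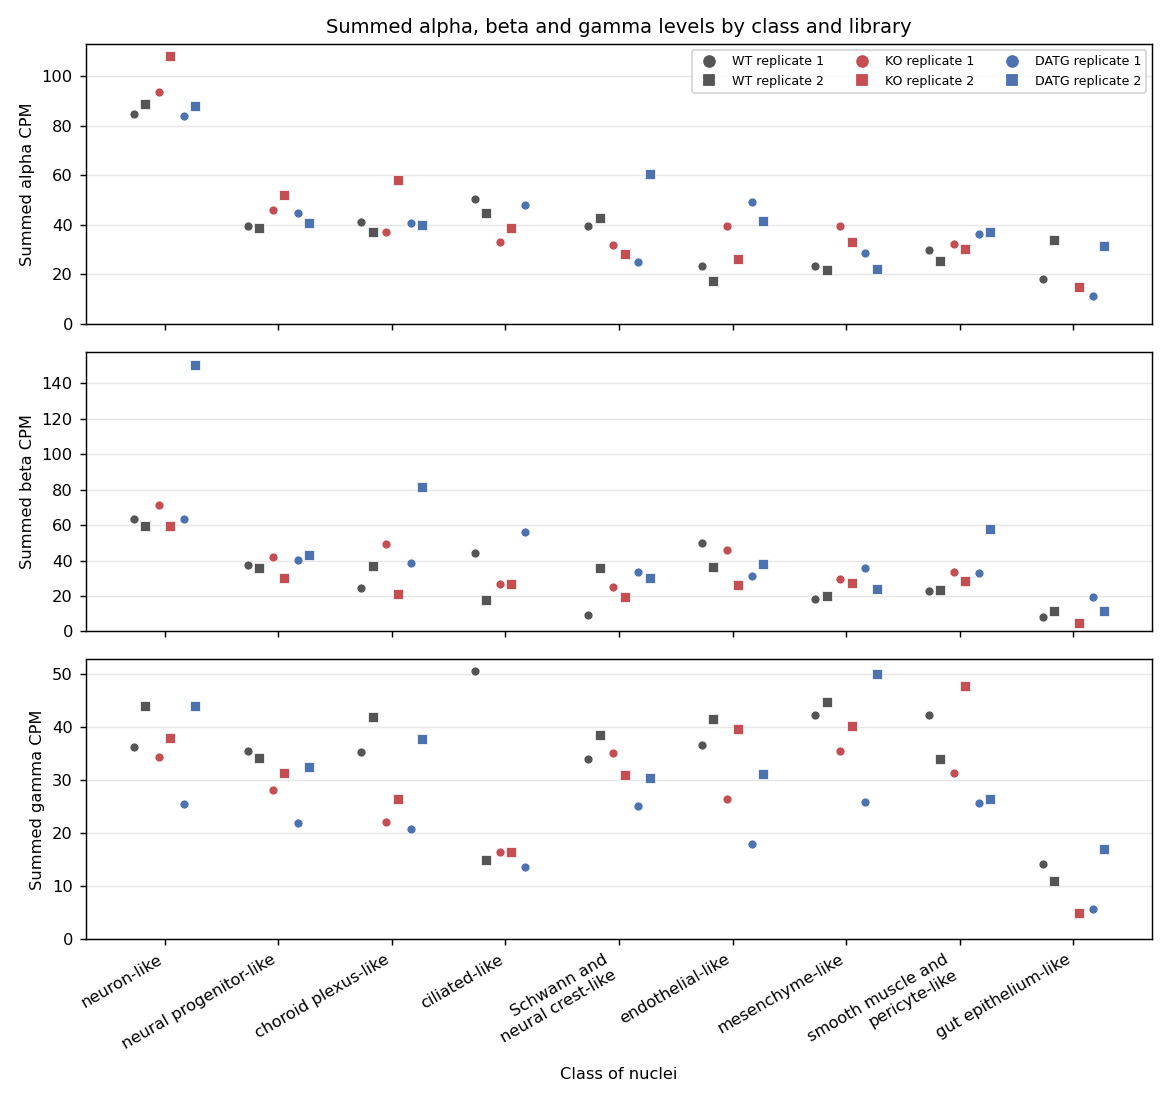
Summed alpha, beta and gamma CPM (linear axes from 0) in each class of nuclei; a point is 1 library, colour gives the group and shape the replicate. In each library alpha (84.1 to 108.1 CPM) and beta (59.4 to 150.5 CPM) are highest in neuron-like nuclei among the classes plotted, while gamma is as high in mesenchyme-like nuclei.

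For alpha and beta the order of these 2 classes held member by member. For gamma it did not, since 0 of the gamma members counted next were higher in mesenchyme-like nuclei in at least 5 of 6 libraries. Among members with at least 60 UMIs in neuron-like and mesenchyme-like nuclei together, the neuron-like level was higher in at least 5 of 6 libraries for 8 of 8 alpha alternate members, for PCDHAC1 and for 13 of 13 beta genes, and for 0 of 4 gamma A, 0 of 2 gamma B and 0 of 1 gamma C-type members. PCDHA10 had 28.9 ± 4.17 CPM (SD, n = 6 libraries) in neuron-like and 8.54 ± 1.95 in mesenchyme-like nuclei. PCDHB14 had 12.4 ± 4.79 and 3.18 ± 1.24, and PCDHB16 8.92 ± 6.57 and 1.82 ± 0.787. PCDHB2 was less uneven, with 10.5 ± 5.58 and 5.88 ± 2.999, and its neuron-like level was the higher in 5 libraries and the lower in 1. Each SD here spans the 3 groups, so it includes any difference between them. PCDHGA10 (16.8 ± 3.92 and 18.2 ± 3.58), PCDHGB6 (8.15 ± 1.95 and 8.17 ± 1.34) and the C-type PCDHGC3 (1.57 ± 0.951 and 1.96 ± 0.803) differed between the classes by less than the spread between libraries.

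**Figure D3:**
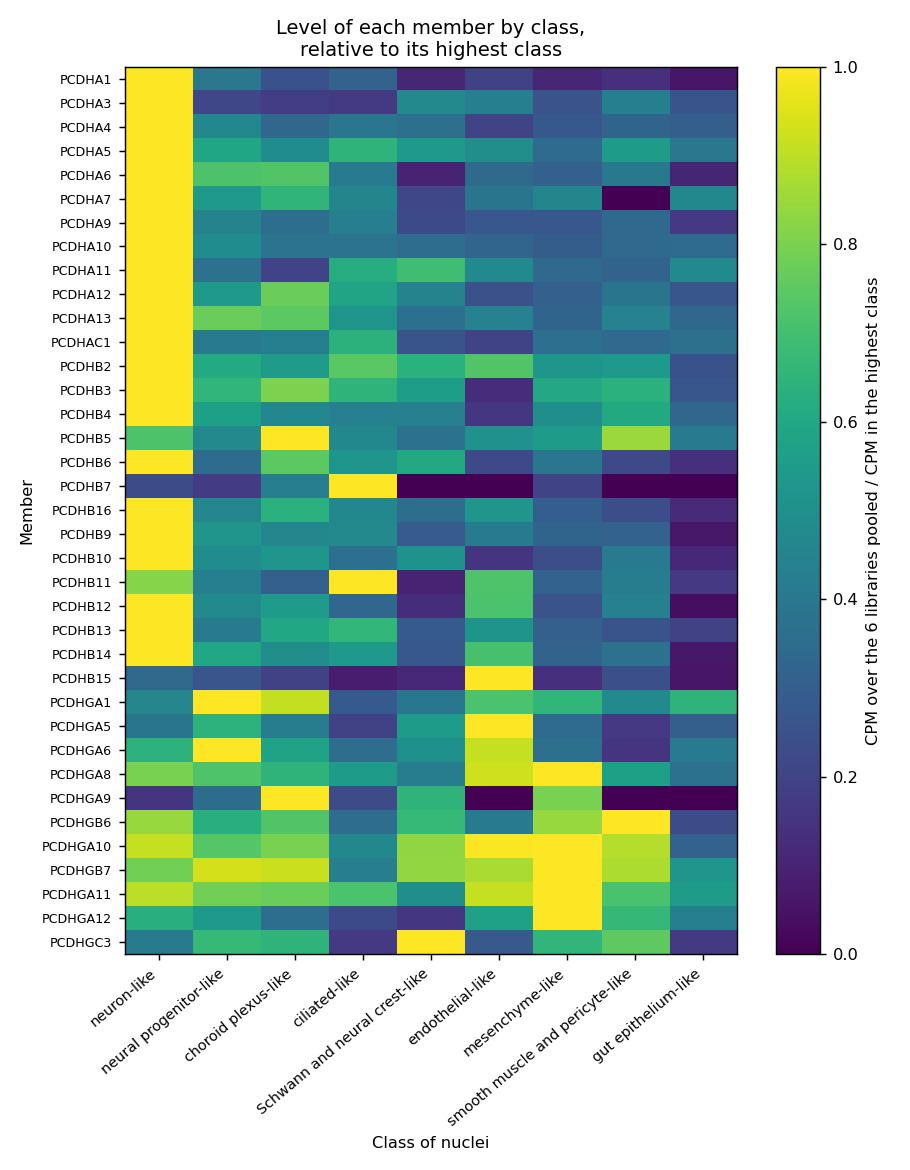
Level, in each class, of the 37 members with at least 60 UMIs in all, as CPM over the 6 libraries pooled divided by the member's highest class (colour, 0 to 1). Most alpha and beta rows are brightest in the neuron-like column; PCDHB15 is brightest in endothelial-like nuclei, on 15 UMIs, and most gamma rows outside neurons.

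In single nuclei the counts were sparse. An alpha UMI was seen in 25.7% of 5061 neuron-like nuclei, a beta UMI in 18.6% and a gamma UMI in 10.9% (median depth 2879 UMIs). Thinned to 1500 UMIs per nucleus, which left out 647 shallower nuclei (151 WT, 229 KO, 267 DATG), these shares were 12.4%, 9.02% and 4.69%. In blood and immune-like nuclei, a type not known for these genes (median depth 1768), the thinned shares rest on 150 nuclei: 6 with alpha (4.0%, exact 95% interval 1.48% to 8.503%), 1 with beta (0.667%, 0.017% to 3.66%) and 4 with gamma (2.67%, 0.731% to 6.69%). Thinned shares in mesenchyme-like nuclei were 4.25%, 4.01% and 5.42%. The mesenchyme-like alpha and gamma shares and the neuron-like gamma share lay within the blood and immune-like intervals. Those intervals are wide, so they cannot tell these shares from background. In 1639 gut epithelium-like nuclei the thinned shares were 3.84% for alpha (2.97% to 4.89%), 1.89% for beta (1.29% to 2.67%) and 1.59% for gamma (1.04% to 2.32%). The neuron-like and mesenchyme-like gamma shares lay above that gamma interval, and the mesenchyme-like alpha share lay within that alpha interval. All these intervals pool nuclei over libraries and groups, so they hold counting error only and not the spread between libraries. By library and without thinning, gamma shares were 7.81% to 17.2% in neuron-like and 6.24% to 14.9% in mesenchyme-like nuclei. In gut epithelium-like nuclei they were 2.08% to 7.64%, where a library had enough nuclei. Of the 202 neuron-like nuclei with at least 2 beta UMIs, 165 (81.7%, exact 95% interval 75.7% to 86.8%, counting error only) had UMIs of at least 2 different beta genes, and up to 6 beta genes were seen in a nucleus. For alpha members this was 244 of 292 nuclei (83.6%, 78.8% to 87.6%). The share for UMIs drawn at random from the members of the class was not worked out. These counts therefore do not show whether a nucleus uses a set of its own.

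The comparisons of KO and DATG with WT, and of DATG with KO, ask whether member levels moved with lncPRESS1; KO and DATG were compared with the same WT libraries. Of the 53 members, 39 passed the filter on low counts, and the other 14, with 4 to 40 UMIs each, were not tested: PCDHA2, PCDHA8, PCDHAC2, PCDHB1, PCDHB8, PCDHGA2, PCDHGA3, PCDHGA4, PCDHGA7, PCDHGB1, PCDHGB2, PCDHGB3, PCDHGB4 and PCDHGC5. No member passed edgeR's quasi-likelihood test at an adjusted p under 0.05 in any of the 3 comparisons, where 0% of 26258 genes passed. At an unadjusted p under 0.05, 1 member stood out in KO against WT, 2 in DATG against WT and 0 in DATG against KO, with 1292, 811 and 1408 genes in all. DESeq2 gave an adjusted p to 34, 36 and 31 members in the 3 comparisons. It called 0 of them in each, against 0.720%, 0.359% and 0.288% of genes. A fit of only the 4 KO and WT libraries also called 0 members, in the whole teratoma (1.86% of genes called), in neural progenitor-like nuclei (0.0447%) and in mesenchyme-like nuclei (0.0854%).

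PCDHB2 had the smallest unadjusted p among the members in both comparisons with WT, under 0.05 in each. It stood at 3.46 and 4.89 CPM in WT (102 and 153 UMIs), 9.57 and 7.58 in KO (281 and 249 UMIs), and in DATG 11.1 and 5.76 (369 and 113 UMIs). Both KO and both DATG libraries lay above both WT libraries, and the DATG pair was wide. The log2 fold change was 1.05 (SE 0.42, edgeR adjusted p = 0.991) in KO against WT and 1.14 (SE 0.42, edgeR adjusted p = 1) in DATG against WT, so neither passed. PCDHB2 made up 12.5% and 18.5% of beta UMIs in WT, 22.1% and 22.7% in KO, and in DATG 24.9% and 19.1%. The share of nuclei called neuron-like, in which beta genes were highest, was 3.98% and 6.38% in WT, 14.8% and 13.0% in KO, and in DATG 15.02% and 3.72%. Summed levels of the 14 neuron markers were 1279 and 1452 CPM in WT, 3218 and 3240 in KO, and in DATG 2831 and 1036. In the whole teratoma, fewer cells of a type and less RNA per cell cannot be told apart, and the part of cell make-up in the whole-teratoma values was not tested.

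Within neuron-like nuclei PCDHB2 stood at 1.81 and 5.42 CPM in WT (2 and 11 UMIs), 14.04 and 11.6 in KO (61 and 51), and in DATG 14.2 and 15.7 (78 and 10). All KO and DATG values lay above both WT values. Of all genes tested there, 16.1% lay above WT in this way in KO and 11.0% in DATG, on the scaling used for such counts below. PCDHB2 made up 2.86% and 9.09% of beta UMIs there in WT, 19.6% and 19.5% in KO, and in DATG 22.5% and 10.4%. The log2 fold change was 1.71 in KO (SE 0.53) and 1.94 in DATG (SE 0.55), with an edgeR adjusted p of 1 for each, and 0 of 22 members tested there passed in any comparison, as did 0% of 16709 genes. The neuron-like class was mostly cluster 6 in 5 libraries, while cluster 11, with GAD and DLX genes, was the largest part (48.4%) in WT replicate 2. In cluster 6 alone PCDHB2 had 2.06 and 5.20 CPM in WT (2 and 4 UMIs), 15.9 and 11.6 in KO (42 and 29), and in DATG 14.7 and 17.0 (47 and 9). In cluster 11 it had 0 and 4.05 CPM in WT (0 and 3 UMIs), 22.3 and 11.1 in KO (16 and 17), and in DATG 17.3 and 11.3 (24 and 1). Both KO and both DATG values lay above WT in each, though WT rests on few UMIs and DATG replicate 2 in cluster 11 on 1. PCDHB2 was followed into classes and clusters for its small p in the whole teratoma, whose counts include these nuclei. The same order in a part of them is thus no separate support, and the share of all genes with it was not worked out by cluster. In the third neuron-like cluster, number 22, the groups overlapped: PCDHB2 had 7.72 CPM in WT replicate 2, 3.06 and 13.4 in KO, and 7.89 in DATG replicate 1, on 3 to 7 UMIs each, and the other two libraries had under 20 nuclei. Mesenchyme markers, which belong to another class, summed to 1817 and 3349 CPM in neuron-like nuclei of WT, 517.5 and 1220 in KO, and in DATG 2324 and 2616. The mitochondrial share of these nuclei was 0.139% and 0.0487% in WT, 0.141% and 0.0703% in KO, and in DATG 0.295% and 0.246%. The part of either in the PCDHB2 values was not tested.

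In mesenchyme-like nuclei PCDHB2 had 2.07 and 4.12 CPM in WT, 8.19 and 6.51 in KO, and in DATG 10.2 and 4.204. The log2 fold changes were 1.18 (SE 0.56, edgeR adjusted p = 0.933) and 1.29 (SE 0.57, edgeR adjusted p = 0.999), and DATG replicate 2 lay next to WT. This class was mostly cluster 1 in WT (54.8% and 77.2% of its nuclei), cluster 0 in KO (80.2% and 62.3%) and in DATG replicate 1 (55.8%), and cluster 15 in DATG replicate 2 (61.0%). In cluster 0 alone PCDHB2 had 2.06 and 5.84 CPM in WT (4 and 7 UMIs). KO had 8.51 and 6.90 (38 and 29 UMIs), and DATG 8.63 and 7.67 (49 and 3). The other clusters of the class did not all show this order. In cluster 1 PCDHB2 had 2.55 and 4.17 CPM in WT (9 and 30 UMIs). KO replicate 2 had 13.4 (5 UMIs), and DATG 6.18 and 3.38 (5 and 2). In cluster 10, WT had 0 and 6.32 CPM (0 and 1 UMIs), on either side of KO (3.39 and 5.53, on 2 and 3 UMIs). DATG replicate 1 had 14.02 (50 UMIs). In cluster 15, KO replicate 2 had 0 UMIs beside 0 and 2 in WT, and DATG had 4.57 and 3.98 CPM (1 and 11 UMIs). In cluster 23 PCDHB2 had 0 UMIs in both WT libraries and 7 and 9 in KO. In progenitor-like nuclei it had 4.43 and 4.55 CPM in WT, 9.79 and 7.67 in KO, and in DATG 8.94 and 2.70, where the DATG values lay on either side of WT. Its 2 clusters differed in weight, cluster 3 holding 52.8% and 30.6% of the class in WT, 61.02% and 31.5% in KO, and in DATG 60.8% and 75.8%. In cluster 3 PCDHB2 had 2.11 and 3.50 CPM in WT (5 and 3 UMIs). KO had 6.90 and 2.87 (27 and 6 UMIs), so that KO and WT overlapped there. DATG had 6.85 and 3.42 (12 and 3 UMIs). In cluster 4 PCDHB2 had 7.65 and 5.05 CPM in WT (13 and 9 UMIs). KO had 14.5 and 10.0 (35 and 43 UMIs), and DATG 12.5 and 0 (13 and 0). No member passed edgeR's test in these classes, of 21 and 14 tested, as did 0% of genes; 1 mesenchyme-like member, PCDHA9 in KO against WT, had an unadjusted p under 0.05 (log2 fold change 1.24, SE 0.46, edgeR adjusted p = 0.856).

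**Figure D4:**
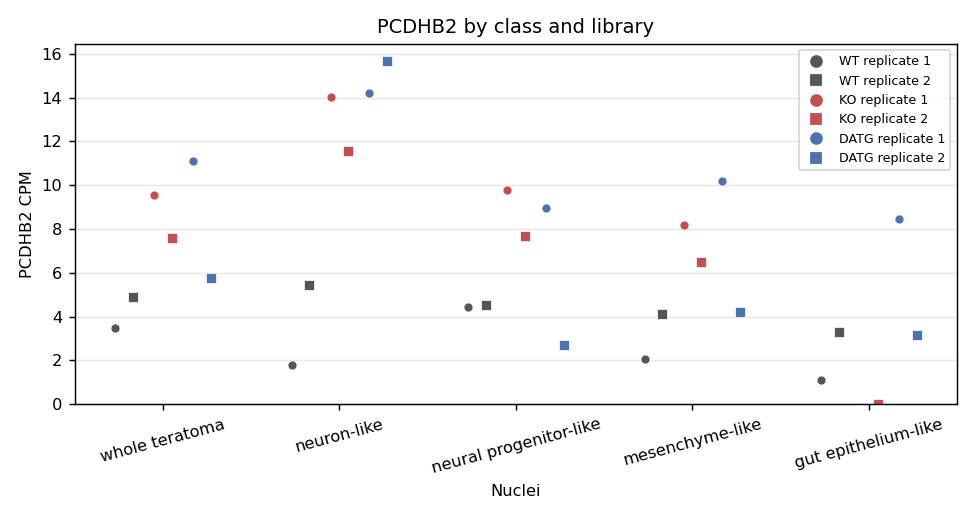
PCDHB2 CPM (linear axis from 0) in the whole teratoma and in 4 classes; a point is 1 library, colour gives the group and shape the replicate. In neuron-like nuclei the KO and DATG libraries (11.6 to 15.7 CPM) lie above both WT libraries (1.81 and 5.42), and in progenitor-like nuclei DATG replicate 2 (2.70) lies below WT.

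For the other beta genes the KO values were mostly above WT, by less, and none passed. PCDHB14 had 4.17 and 3.74 CPM in WT, 6.78 and 4.81 in KO, and in DATG 6.48 and 3.06. PCDHB9 had 3.53 and 3.01, 6.17 and 4.02, and 4.85 and 2.70 in the same order, so that for both genes DATG replicate 2 lay below WT. PCDHB12 had 1.22 and 0.927 CPM in WT, 1.87 and 1.67 in KO, and in DATG 1.96 and 1.63, with log2 fold changes of 0.75 (SE 0.43) and 0.89 (SE 0.43). PCDHB6 had 0.644 and 0.480, 0.852 and 0.883, and 1.12 and 1.33 CPM; in DATG against WT its log2 fold change was 1.27 (SE 0.47, edgeR adjusted p = 1). PCDHB5 had its highest values in DATG, with 1.15 and 1.06, 0.852 and 1.19, and 1.63 and 2.04 CPM. PCDHB15 went the other way, with 1.63 and 1.60 CPM in WT, 1.16 and 1.10 in KO, and in DATG 1.09 and 0.663; its log2 fold changes were -0.49 (SE 0.44) and -0.74 (SE 0.45). Its share of beta UMIs was 5.90% and 6.05% in WT, 2.67% and 3.28% in KO, and in DATG 2.43% and 2.20%.

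Summed beta levels were 27.6 and 26.4 CPM in WT, 43.4 and 33.4 in KO, and in DATG 44.7 and 30.2, a log2 ratio of 0.51 in KO and 0.47 in DATG. Without KO replicate 1 the first was 0.31, and without DATG replicate 1 the second was 0.16.

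Summed alpha levels were 39.3 and 36.8 CPM in WT, 54.4 and 51.9 in KO, and in DATG 46.8 and 29.8, so that KO lay above WT (log2 ratio 0.48) and the DATG libraries on either side of it (0.01). PCDHA10 had 10.9 and 11.03 CPM in WT, 16.3 and 16.1 in KO, and in DATG 14.5 and 13.0. These pairs were narrow and did not overlap, with a log2 fold change of 0.59 (SE 0.25, edgeR adjusted p = 1) in KO against WT and 0.48 (SE 0.25) in DATG against WT. PCDHA9 had 4.34 and 4.09, 6.98 and 7.82, and 5.52 and 2.09 CPM in the same order. PCDHA12 had 9.12 and 4.92, 7.90 and 5.97, and 7.66 and 1.94 CPM, so that its WT and KO values overlapped. The C-type PCDHAC1 had 2.44 and 2.30, 3.78 and 3.62, and 3.53 and 2.40 CPM (log2 fold change in KO against WT 0.67, SE 0.40).

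Summed gamma levels were 34.9 and 36.3 CPM in WT, 31.7 and 33.9 in KO, and in DATG 24.1 and 34.8, log2 ratios of -0.12 and -0.27 against WT; without DATG replicate 2 the latter was -0.56 and without DATG replicate 1 it was -0.03. PCDHGA10 had 15.8 and 16.9 CPM in WT, 13.1 and 16.7 in KO, and in DATG 10.6 and 14.1, and PCDHGB6 6.78 and 7.16, 8.14 and 7.09, and 5.004 and 5.66. PCDHGA9 was rare, with 9 and 9 UMIs in WT, 7 and 12 in KO, and in DATG 13 and 27, and had the largest log2 fold change of a tested member in DATG against WT (1.71, SE 0.78, edgeR adjusted p = 1). Of the C-type genes, PCDHGC3 had 1.36 and 1.85 CPM in WT, 3.03 and 1.64 in KO, and in DATG 1.51 and 1.17. PCDHGC4 had 0.407 and 0.320, 0.136 and 0.213, and 0.301 and 0.357 CPM, with a log2 fold change of -0.99 (SE 0.59) in KO against WT.

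Counted over the 39 tested members, on CPM scaled by TMM (trimmed mean of M-values) library sizes, both KO libraries lay above both WT libraries for 19 members, where 22.7% of all tested genes did, and below for 7 (22.4% of all). Of the 19, 8 were alpha, 9 beta and 2 gamma genes, and of the 7, 1 was beta (PCDHB15) and 6 gamma. The count depends on the scaling: on CPM by total human UMIs, PCDHB4, PCDHB10, PCDHB16 and PCDHGB6 of the 19 overlapped between KO and WT. Both DATG libraries lay above both WT libraries for 14 members (11.6% of all) and below for PCDHB15 and PCDHGA5 (12.1% of all). On CPM by total human UMIs, PCDHAC1 and PCDHB16 of the 14 overlapped between DATG and WT. Against KO, DATG lay above for 8 members (19.8% of all) and below for 8 (21.1% of all). The median log2 fold change of the tested members was 0.38, 0.31 and -0.04 in KO against WT, DATG against WT and DATG against KO, and over all tested genes 0.01, 0.02 and 0.03. In neuron-like nuclei, of 22 tested members, KO lay above WT for PCDHA10, PCDHB12 and PCDHB2 (16.1% of all genes) and below for PCDHB13, PCDHGA12 and PCDHGA8 (15.4%), shares near those of all genes, and DATG lay above WT for PCDHB2 alone (11.0%) and below for 0 (12.7%). DATG there lay above KO for PCDHB2 (15.2%) and below for PCDHA9 and PCDHGB6 (17.9%). In progenitor-like nuclei, of 14 tested, KO lay above WT for PCDHA10, PCDHAC1 and PCDHB2 (14.7%) and below for PCDHB16 (16.7%), DATG above WT for PCDHA10, PCDHAC1 and PCDHB14 (12.4%) and below for PCDHB9 and PCDHGB6 (14.8%), and DATG above KO for 2 (16.0%) and below for 1 (18.2%). In mesenchyme-like nuclei, of 21 tested, KO lay above WT for 10 (21.6%) and below for 3 (22.5%), and DATG above WT for 10 (11.2%) and below for 1 (13.9%), and DATG above KO for 2 (17.4%) and below for 3 (17.8%), beside the change of clusters in that class given above.

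**Figure D5:**
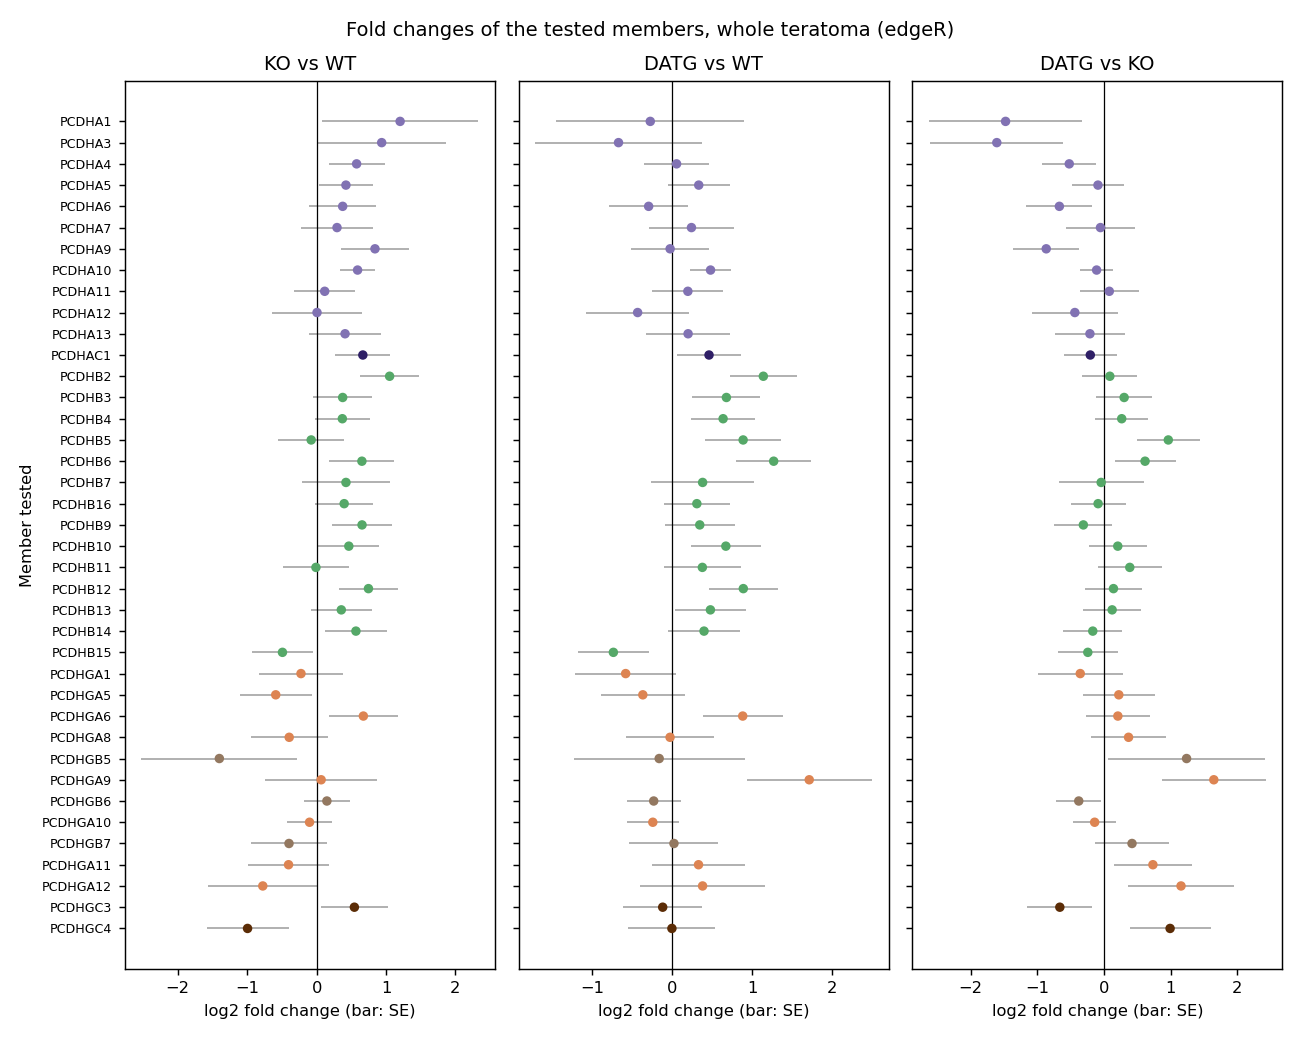
Log2 fold change (points) with its SE (bars) from edgeR for the 39 tested members in the 3 comparisons, coloured by subfamily; axes are log2. Beta members other than PCDHB15 lie mostly right of 0 in both comparisons with WT, and none passed the test.

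DATG against KO gave no unadjusted p under 0.05. The smallest were those of PCDHGA9 (log2 fold change 1.65, SE 0.78), PCDHB5 (0.96, SE 0.48) and PCDHA9 (-0.87, SE 0.49), each with an edgeR adjusted p of 0.709. In DATG replicate 2, PCDHA1 and PCDHA3 had 0 UMIs, which allows up to 0.153 CPM, while the other 5 libraries had 16 to 53 and 8 to 23 UMIs. Without DATG replicate 1, edgeR called PCDHA1, PCDHA3, PCDHA9, PCDHA12, PCDHGA9 and PCDHGA12 in DATG against KO, where 22.2% of 27292 genes were called.

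Among the genes known to act on promoter choice, such as CTCF, cohesin and DNA methyltransferases, 0 of 21 passed edgeR's test or had an unadjusted p under 0.05 in any comparison; CTCF stood at 125.3 and 78.2 CPM in WT, 90.1 and 90.5 in KO, and in DATG 88.7 and 95.6. Of 20 genes for binding partners and signalling, again 0 did. Of 17 non-clustered protocadherins, related adhesion genes outside the 3 clusters, 0 passed, and 3, 1 and 1 had an unadjusted p under 0.05. PCDH11X had 141.0 and 99.6 CPM in WT, 224.6 and 177.2 in KO, and in DATG 185.4 and 194.8. Its log2 fold change was 0.76 in KO (SE 0.25, edgeR adjusted p = 0.96) and 0.82 in DATG (SE 0.25, edgeR adjusted p = 1). PCDH15 (1.03, SE 0.37) and PCDH9 (0.82, SE 0.32) were the other 2 in KO against WT, and PCDH20 (1.22, SE 0.46) the 1 in DATG against KO. The 13 mitochondrially encoded genes, listed as a sign of RNA quality, had median log2 fold changes of 0.25, 2.48 and 2.22 in the 3 comparisons; edgeR called 0, 0 and 0 and DESeq2 0, 9 and 7.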

How the data were processed

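The authors deposited, per library, a matrix of UMI counts per gene and barcode, not normalized. Per the submitters' processing notes these were made with Cell Ranger 8.0.1, while the matrix headers name 8.0.0. Counting settings (introns, strand) were not given in the sources used here. As builds the notes name GRCh38 and GRCm38, while mouse features carry the prefix GRCm39; no mouse coordinate is used. Groups and replicate numbers come from the sample titles. The members and lists were chosen with earlier results of these data known.

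Nuclei had at least 500 UMIs and 300 genes, with at least 90% of UMIs on human genes. Doublets, called against simulated ones at 0.8% per 1000 nuclei, were left out (5.20% to 10.8%). Clusters came from 2000 variable genes, none of them a member, 30 principal components, 20 neighbours and Leiden resolution 1. A list could name a cluster when at least 3 of its markers, over 1/3 of the list, stood 2-fold above other clusters at 20 CPM or more. It was passed over where markers of another class outnumbered its own among the cluster's leading genes, or where its share of markers was well below the best list's. A shallow cluster without such leading markers also took no name. Clusters 2, 7, 16 and 18 passed the marker cut but took no name by these further rules. Names were rebuilt here.

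Counts were summed per library over nuclei, since nuclei are not replicates, and tested with edgeR 4.0.16 (R 4.3.3; robust quasi-likelihood, TMM, default filter, 6 libraries, Benjamini-Hochberg over all genes, threshold 0.05), with DESeq2 1.42.0 as an alternative. The test was checked on simulated counts with an assumed, fixed spread and changes larger than most member changes given here. That check does not show whether changes of the size given here would be found. CPM is scaled by the total of human UMIs unless TMM is named. Own exonic sequence is what GENCODE 29 gives to 1 member only. Named are up to 4 members per subfamily and comparison with the smallest p and the C-type members; beta levels are given for the 5 highest and 3 lowest. Named without that rule, after values were seen, were PCDHB15, members called on leaving out a library, and members picked as examples of class levels. Intervals are exact binomial. Alternatives were library scaling, no low-count filter, 4 libraries, 1000 UMIs per nucleus, doublets kept, the replicate block and leaving out each library.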

Additional observations from a re-analysis of the deposited data

How the results depend on the processing

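Of 120 recomputed counts of members called, 117 stayed at 0. The other 3 came from leaving out DATG replicate 1, where the lone DATG library is assumed to vary like the other groups: the counts over leave-one-out fits ran from 0 to 1 in DATG against WT (PCDHGA9, log2 fold change 2.40, edgeR adjusted p = 0.0438, where 7.58% of 27292 genes were called), from 0 to 6 in DATG against KO (PCDHGA9 2.35, PCDHGA12 1.92, PCDHA9 -1.63 and PCDHA12 -1.63, and PCDHA1 and PCDHA3, whose remaining DATG library is at 0), and from 0 to 1 in mesenchyme-like nuclei in DATG against KO (PCDHGB7, 2.47, edgeR adjusted p = 0.0373, where 11.4% of 20175 genes were called). In KO against WT, the fit of only those 4 libraries called 1.86% of 25659 genes and 0 of 37 members. Leaving out a library moved the log2 ratio of summed alpha CPM from -0.35 to 0.30 in DATG against WT and from -0.84 to -0.18 in DATG against KO, that of beta from 0.31 to 0.68 in KO and from 0.16 to 0.73 in DATG against WT, and that of gamma from -0.56 to -0.033 in DATG against WT and from -0.44 to 0.084 in DATG against KO. Of 507 recomputed member values 483 kept direction and call.

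Log2 fold changes that turned sign, none of them called, are given as the range on leaving out each library. In KO against WT these were PCDHB5 (-0.41 to 0.19, and 0.037 with doublets kept) and PCDHGA9 (-0.35 to 0.39, and -0.34 with doublets kept). In DATG against WT they were PCDHA9 (-0.81 to 0.44, and 0.017 with doublets kept), PCDHGC3 (-0.35 to 0.15) and PCDHGC4 (-0.21 to 0.18, 0.0067 with RLE size factors, 0.014 with DESeq2, 0.14 at 1000 UMIs and 0.029 with doublets kept). In DATG against KO they were PCDHB2 (-0.37 to 0.43) and PCDHB12 (-0.039 with doublets kept). PCDHB2 ran from -0.65 to 1.01 in progenitor-like nuclei in DATG against WT, from -1.61 to 0.047 there in DATG against KO, and from -0.53 to 0.49 in mesenchyme-like nuclei in DATG against KO. The cause was not tested. With the replicate number as a block, 0 members were called in all 12 tests, and PCDHGA9 in KO against WT was -0.014. Deviations of libraries with the same number correlated at 0.118 (WT and KO), -0.128 (WT and DATG) and 0.430 (KO and DATG). With 2 libraries per group, libraries of different numbers give the same values with the sign turned. These values therefore cannot decide whether same-numbered libraries belong together, and the labels do not say.

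Fold changes carried wide errors in DATG against WT both for rare members, such as PCDHGA9 (77 UMIs, SE 0.78), and for an abundant one, PCDHA12 (1143 UMIs, SE 0.65). How much of this comes from depth and how much from the spread between libraries was not tested.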

Other observations

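Clusters that took no class name also carried these genes. Cluster 7, which held 10 of 14 neuron and 5 of 14 neural progenitor markers, had 50.9 to 107.3 CPM of summed alpha and 41.4 to 87.3 of summed beta over the libraries. Cluster 18, led by SLC6A5, PAX2 and PAX8, held 12 of 14 neuron markers and had 87.9 to 117.0 CPM of alpha and 61.0 to 103.7 of beta. The neuron-like levels and shares given above include neither the 2251 nuclei of cluster 7 nor the 915 of cluster 18. Summed gamma levels in cluster 18 were 84.9 and 89.5 CPM in WT, 39.2 and 33.3 in KO and 41.0 in DATG replicate 1, and DATG replicate 2 had too few nuclei for a value. The WT values rest on 11 and 26 UMIs from 24 and 85 nuclei. No test was run on this cluster.

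Pooled over libraries, PCDHB15 was highest in endothelial-like nuclei among the classes plotted. The WT libraries gave 684341 and 746674 of the UMIs of these nuclei and the other 4 libraries 151710 to 288628, so the pooled order is weighted towards WT. By library it had 10.2 and 5.36 CPM there in WT (7 and 4 UMIs), 6.59 and 0 in KO (1 and 0), and in DATG 4.46 and 6.93 (1 and 2). In neuron-like nuclei it had 4.51 and 2.46, 2.53 and 2.04, and 1.46 and 3.14 CPM in the same order, so that KO replicate 2 went against the pooled order. Beside the beta genes, the pseudogene PCDHB18P had 9 and 6 UMIs in WT, 14 and 15 in KO, and in DATG 13 and 4, and the antisense PCDHB1-AS1 had 2 and 15, 26 and 15, and 19 and 2.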
